A study of Mus musculus with 6 samples.

Results

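Kupffer cells, the macrophages resident in the liver sinusoids, were examined through 10 marker genes, *Clec4f*, *Cd5l*, *Marco*, *Vsig4*, *Csf1r*, *Cd68*, *Emr1* (now *Adgre1*, which encodes F4/80), *Cd14*, *Cd163* and *Timd4*. Every probe of the liver table that carried one of these symbols was taken, which gave 15 of the 25697 probes, and 10 of them, from 7 of the genes, were bright enough to be tested, as described further on. RNA came from male FVB pups (FVB/N in the study's methods) at postnatal day 6, with 3 arrays of hSRY-ON and 3 of hSRY-OFF livers on Illumina MouseRef-8 BeadChips, where each probe is read as the mean intensity of many beads. In hSRY-ON pups a FLAG-tagged human *SRY*-IRES-*EGFP* cassette, present as a single copy at the *H11* locus, stood under the ubiquitous CAG promoter after Cre from the oocyte of a *Ddx4-Cre* mother had removed *DsRed2* in the early embryo, and the hSRY-ON pups chosen for the arrays did not carry *Ddx4-Cre* themselves. The genotype of the hSRY-OFF pups is not settled by the sources: the study's methods use this name for mice with the responder in its unrecombined, silent form, while its controls are otherwise littermates that lack the responder and carry *Ddx4-Cre* or no transgene, and the labels give the group name alone. By its promoter the activated gene is not restricted to hepatocytes or to macrophages, and the responder is 1 integration. In liver sections the study reports the hSRY protein in hepatocyte nuclei. Its presence in liver macrophages was not examined here. For hSRY-ON pups the study also reports fatty livers, stomachs that lacked milk, and slow growth that could be seen at the age of the arrays. The part of feeding, growth and liver fat in the values below was not tested. The hSRY-OFF arrays are called OFF1 to OFF3 below and the hSRY-ON arrays ON1 to ON3, by the replicate number in the labels.

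The arrays were alike in depth of signal, with median deposited intensities of 147 to 165 and 10318 to 10762 probes detected on each (40.2% to 41.9%), where detected means a detection p under 0.01 against the negative control beads. Correlations of log2 intensity over tested probes were 0.987 to 0.992 among hSRY-OFF, 0.965 to 0.982 among hSRY-ON and 0.912 to 0.939 between the groups. The hepatocyte marker *Alb* was detected on every array.

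Kupffer cells settle in the fetal liver and keep their number largely by self-renewal, which depends on signals through the CSF1 receptor. They face the portal blood, where they take up bacteria, endotoxin, complement-coated particles, dying cells and old erythrocytes, and they break down the heme of the latter and return its iron. Their identity in mice is tied to the nuclear receptor LXR alpha (*Nr1h3*) and to the transcription factors PU.1 and Spi-C.

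The levels of *Vsig4*, *Clec4f* and 1 probe of *Emr1* were lower in hSRY-ON livers, by 1.55-fold, 1.84-fold and 1.68-fold. *Marco*, *Cd68* and *Cd14* did not pass the test, and the *Csf1r* probes went in opposite directions. The difference of *Cd14*, 1.61 on the log2 scale and toward higher levels in hSRY-ON, was the largest among the members. Of the 10 tested probes, 4 were called lower and 1 higher at an adjusted p under 0.05 (limma, Benjamini-Hochberg over 10734 tested probes). Among the 4, the second probe of *Clec4f*, entered the test through its hSRY-OFF arrays alone, and 9 member probes were detected in both groups, 3 of them called lower and 1 higher. Over all tested probes 33.1% were called in either direction, 17.3% lower and 15.8% higher. The median difference of the 10 probes was -0.47 on the log2 scale, against 0.02 over all tested probes, and 8 of the 10 differences were negative. At 4 of the 10 probes the hSRY-ON values all lay below, and at 2 all above, the hSRY-OFF values. Over all tested probes, 24.6% were separated downward and 25.4% upward in this way, so that the total of 6 among the 10 members stands close to the background. In RNA of whole liver, fewer macrophages and less of these transcripts per macrophage cannot be told apart.

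**Figure D1:**
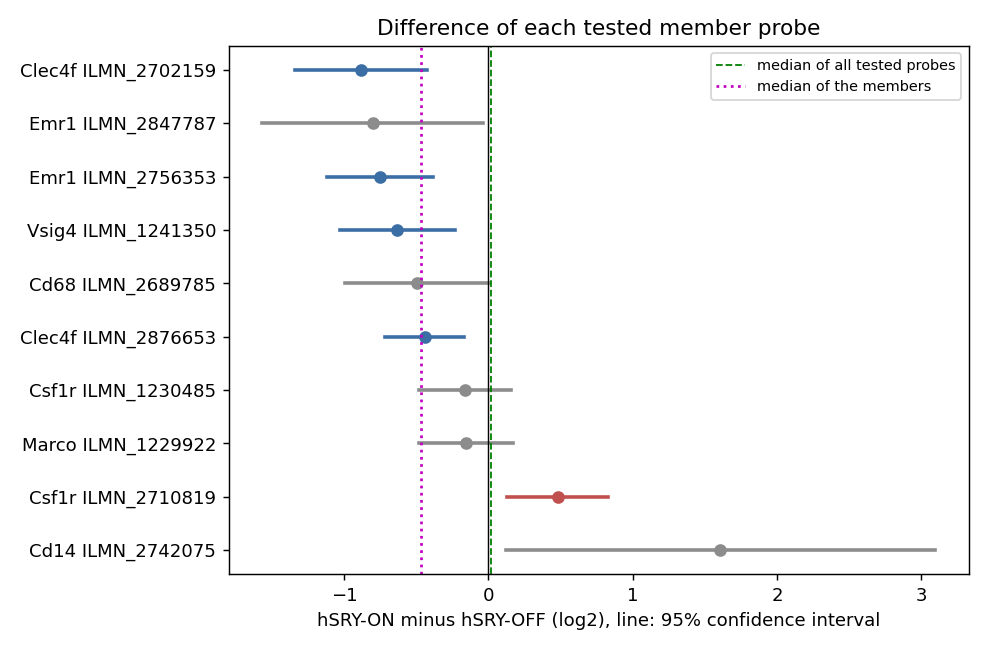
Difference between hSRY-ON and hSRY-OFF livers (x axis, log2) of each tested member probe (y axis), with points for the limma estimate, lines for its 95% confidence interval and colour for the call (blue lower, red higher, grey not called). The dotted line is the median of the 10 probes (-0.47) and the dashed line that of all tested probes (0.02), and 8 of the 10 points lie left of 0.

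RefSeq windows upstream of the transcription start (assembly GRCm38.p6) were at hand for 7 of the 10 genes. Those of *Clec4f* and *Vsig4*, both called lower, and of *Marco*, a scavenger receptor gene that was not called, are shown to set their sequences side by side. Each is the stretch of 250 bases before the start, 5′ to 3′ on the strand of the gene, with capitals for the core GAGGAA that PU.1 and related ETS factors can bind.
Vsig4 chrX:96293439-96293688 (minus strand): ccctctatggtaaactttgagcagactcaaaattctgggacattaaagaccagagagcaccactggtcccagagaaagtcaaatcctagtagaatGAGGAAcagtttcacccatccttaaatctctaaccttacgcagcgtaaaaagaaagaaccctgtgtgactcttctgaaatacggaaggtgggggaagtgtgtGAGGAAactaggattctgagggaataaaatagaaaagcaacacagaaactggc
Clec4f chr6:83656117-83656366 (minus strand): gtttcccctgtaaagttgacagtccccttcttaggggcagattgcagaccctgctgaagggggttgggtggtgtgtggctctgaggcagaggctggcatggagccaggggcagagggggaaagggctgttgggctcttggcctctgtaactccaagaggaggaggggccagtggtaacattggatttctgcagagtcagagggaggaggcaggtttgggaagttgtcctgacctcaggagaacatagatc
Marco chr1:120505025-120505274 (minus strand): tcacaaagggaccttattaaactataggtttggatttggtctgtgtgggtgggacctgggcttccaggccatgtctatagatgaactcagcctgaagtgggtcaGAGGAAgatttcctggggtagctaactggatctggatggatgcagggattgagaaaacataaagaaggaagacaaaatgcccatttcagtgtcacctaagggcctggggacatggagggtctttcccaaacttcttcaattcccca
The GAGGAA core, searched on both strands, was present in the windows of 4 of the 7 genes, *Cd5l*, *Cd68*, *Marco* and *Vsig4*, and in 23.3% of 32851 windows of this length. *Vsig4* held it at 155 and 53 bases before the start, *Marco* at 146 bases, and *Clec4f* had no match. Further motifs searched on both strands, with no overlap with it in these windows, were TGANTCA (AP-1, 6.75% of windows), found in *Cd68*, and CACGTG (an E-box, 6.02%), found in 0 of the 7.

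The receptors that catch particles from the blood came first. *Clec4f* encodes a C-type lectin of mouse Kupffer cells, and its probe ILMN_2702159 was detected on every array. Its log2 intensities were 10.89, 11.20 and 10.72 in hSRY-OFF and 9.92, 9.84 and 10.40 in hSRY-ON livers. The groups did not overlap, and ON3 was nearest to the controls. The means of 10.94 ± 0.24 and 10.05 ± 0.30 (SD, n = 3 each) differed by -0.88 ± 0.19 (SE, adjusted p 0.0132). The adjusted p was 0.0514 without OFF2 and under 0.05 in the other 14 of 15 settings, with a range of 0.00432 to 0.0514.

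The other *Clec4f* probe (ILMN_2876653) read 5.99, 5.87 and 5.82 in hSRY-OFF livers and 5.40, 5.40 and 5.56 in hSRY-ON livers, where it was not well above background on any array. Its groups did not overlap either. It passed the filter through the hSRY-OFF arrays alone, so that its call lends no support to a difference. The difference can be given only as a bound, a level at least 1.14-fold lower under hSRY-ON, with a fitted adjusted p of 0.0258. That call held in 5 of 15 settings, with adjusted p from 0.0186 to 0.255, and among the arrays it was lost without OFF1 (0.109), OFF2 (0.0769), ON1 (0.0763) or ON2 (0.0589).

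*Vsig4* encodes CRIg, the receptor by which Kupffer cells bind C3b and iC3b on circulating particles. Its single probe (ILMN_1241350) read 11.67, 12.07 and 11.54 in hSRY-OFF and 10.95, 11.18 and 11.26 in hSRY-ON livers. All hSRY-ON values lay below the lowest control. The means were 11.76 ± 0.27 and 11.13 ± 0.16 (SD, n = 3 each), and the difference of -0.63 ± 0.17 (SE) had an adjusted p of 0.0274. It was lost without OFF1 (0.0695), OFF2 (0.0818) or ON1 (0.0867), and the other 12 of 15 settings kept it.

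The complement genes that *Vsig4* acts with were read from the same fit. Of 6 tested probes, 4 were called lower and 0 higher. *C3* itself, the source of the fragments that CRIg binds, differed by -0.15 ± 0.11 (SE, adjusted p 0.328). *Cfi*, whose protease turns C3b into iC3b, was lower by -1.07 ± 0.13 (SE, adjusted p 0.00116), and *Cfb*, a part of the alternative C3 convertase, by -0.96 ± 0.15 (SE, adjusted p 0.00312). Both probes of *Crry* (now *Cr1l*), a brake on C3 activation on cell surfaces, were also called lower (-0.52 and -0.46), and neither passed once OFF1, OFF2, OFF3 or ON1 was left out (adjusted p 0.0564 to 0.0902). Hepatocytes make most circulating complement, so that *C3*, *Cfi* and *Cfb* are not macrophage markers. *Cfp*, which is counted below for Kupffer cell identity too, was not called (-0.07, adjusted p 0.760).

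*Marco*, a scavenger receptor for unopsonised bacteria, was detected on every array (ILMN_1229922). Its log2 intensities were 8.40, 8.35 and 8.38 in hSRY-OFF and 8.07, 8.13 and 8.47 in hSRY-ON livers. The values of hSRY-ON replicates 1 and 2 lay under the controls and that of ON3 above them. The difference of -0.15 had a 95% confidence interval from -0.48 to 0.17 (adjusted p 0.433), and it was not called in any of 15 settings (0.0993 to 0.753). *Timd4*, encoding a phosphatidylserine receptor for dying cells, passed detection on OFF1 and OFF2 and on none of ON1 to ON3 (ILMN_2589057) and so was not tested. Its deposited intensities were 197, 196 and 161 in hSRY-OFF and 174, 160 and 161 in hSRY-ON livers, where signals this dim are near background.

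*Cd5l*, which encodes a secreted inhibitor of apoptosis made by macrophages, and *Cd163*, the receptor for hemoglobin bound to haptoglobin, were detected on 0 of the 6 arrays. The deposited intensities of *Cd5l* (ILMN_2767236) ran from 128 to 151, with detection p-values of 0.286 to 0.927. The *Cd163* probes lay between 124 and 167, and the lowest detection p was 0.0501. No level can be compared for either gene, and of the 10 marker genes *Clec4f*, *Vsig4*, *Marco*, *Csf1r*, *Cd68* and *Cd14* had a probe that was detected on every array, as had *Emr1* with 1 of its 3 probes.

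**Figure D2:**
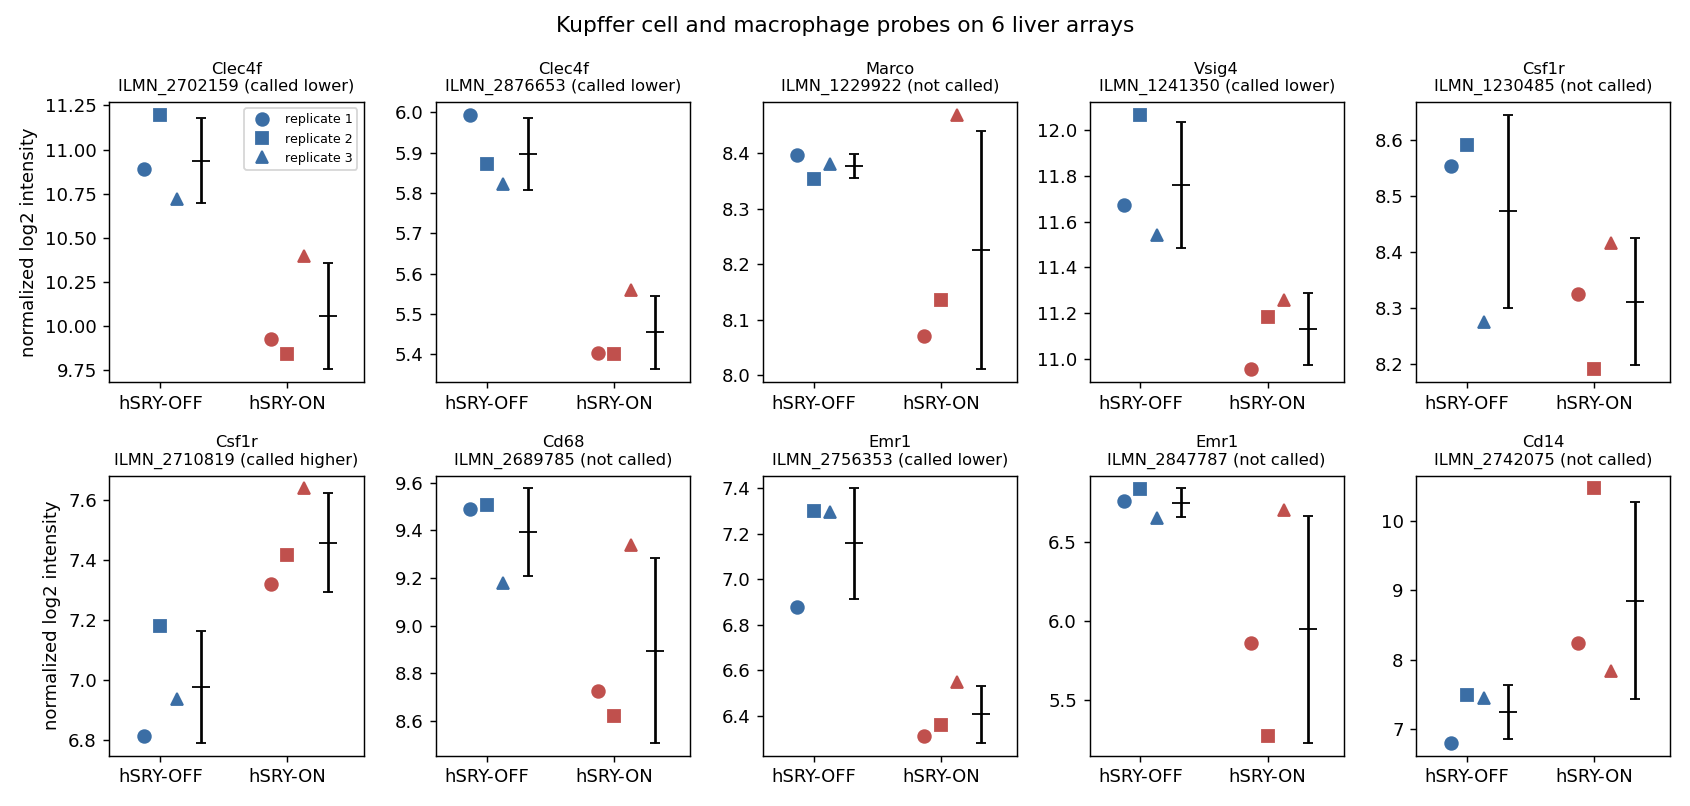
Normalized log2 intensity (y axis, a separate range in each panel) of the 10 tested member probes in hSRY-OFF (blue) and hSRY-ON (red) livers, with a symbol for each replicate number and black bars for the mean and SD of 3 arrays. The triangle of ON3 is the highest hSRY-ON value in 9 of the 10 panels, the exception being *Cd14*, where replicate 2 reached 10.47. The square of OFF2 is the highest hSRY-OFF value in 8 of the 10 panels.

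Genes carried by macrophages of many organs were examined next. *Emr1* had 3 probes. The one detected on every array (ILMN_2756353) read 6.88, 7.30 and 7.29 in hSRY-OFF and 6.31, 6.36 and 6.55 in hSRY-ON livers, with no overlap. Its means of 7.16 ± 0.24 and 6.41 ± 0.13 (SD, n = 3 each) differed by -0.75 ± 0.16 (SE, adjusted p 0.0107), the smallest p among the members. This call was kept in 15 of 15 settings (adjusted p 0.00958 to 0.0462), while the size of the difference ranged from -0.88 to -0.35, being smallest without background correction.

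The second *Emr1* probe (ILMN_2847787) had the values 6.76, 6.84 and 6.66 in hSRY-OFF and 5.87, 5.28 and 6.71 in hSRY-ON livers. Replicates 1 and 2 of hSRY-ON were lower than every control and replicate 3 was within the control range. The difference of -0.80 ± 0.33 (SE) did not pass the test (adjusted p 0.0971), was -0.65 with 1 undetected array of the hSRY-ON group raised to its detection floor, the lowest signal detected there, and passed it without ON3 (-1.19, adjusted p 0.00482). The remaining probe (ILMN_1216880) was detected on 0 arrays.

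*Cd68* encodes a lysosomal membrane glycoprotein of phagocytes. It read 9.49, 9.51 and 9.18 in hSRY-OFF and 8.73, 8.62 and 9.34 in hSRY-ON livers (ILMN_2689785). Again ON3 lay among the controls and the other 2 hSRY-ON arrays below them. The difference of -0.50 ± 0.21 (SE) was not called (adjusted p 0.108), and without ON3 it was -0.72 (adjusted p 0.0106).

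*Csf1r*, encoding the receptor for the growth factors CSF1 and IL-34, gave 2 answers. Probe ILMN_1230485 read 8.55, 8.59 and 8.28 in hSRY-OFF and 8.33, 8.19 and 8.42 in hSRY-ON livers, which overlapped. Its difference was -0.16 with a 95% confidence interval from -0.48 to 0.16 (adjusted p 0.394). Probe ILMN_2710819 read 6.81, 7.18 and 6.94 in hSRY-OFF and 7.32, 7.41 and 7.64 in hSRY-ON livers, with every hSRY-ON value above the controls. This rise of 0.48 ± 0.15 (SE, adjusted p 0.0433) is the single higher call among the members. It was kept in 3 of 15 settings and lost without each of the 6 arrays in turn (adjusted p 0.0513 to 0.154), with a replicate block (0.0603) and with median scaling (0.103). The distance between the probes on the same array changed by 0.64 between the groups (-1.50 ± 0.21 in hSRY-OFF and -0.85 ± 0.13 in hSRY-ON, SD, n = 3 each, exact permutation test, two-sided, p = 0.1, the smallest this design allows). No direction can be given for *Csf1r* as a gene.

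*Cd14*, the co-receptor that hands endotoxin to TLR4, had the largest difference among the members and was not called. Its probe (ILMN_2742075) read 6.80, 7.48 and 7.45 in hSRY-OFF and 8.24, 10.47 and 7.84 in hSRY-ON livers. The groups did not overlap, and ON2 stood far above the other 2 hSRY-ON arrays, with a deposited intensity of 1504 against 473 and 317. The difference was 1.61 ± 0.64 (SE, adjusted p 0.0899), and it was 0.80 without that array (adjusted p 0.0558). It is 2.12 without ON3 (adjusted p 0.0341), the one setting of 15 in which it was called.

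The places of OFF2 and ON3 were counted over the members. OFF2 had the highest hSRY-OFF value at 8 of the 10 tested probes, against 35.4% of all tested probes. With OFF2 left out, 1 member probe was called lower and 0 higher, and over all tested probes 1191 lower and 975 higher. ON3 had the highest hSRY-ON value at 9 of the 10 tested probes, against 38.7% of all tested probes, and 44.5% of those with a negative difference. Without ON3, 6 member probes were called lower and 1, that of *Cd14*, higher. Calls over all 10734 tested probes rose too, from 1854 to 2116 lower and from 1700 to 1944 higher. Markers of neutrophils, lymphocytes and dendritic cells were also highest on ON3 among the hSRY-ON arrays, while those of monocytes and recruited macrophages were not. The summed normalized intensity of 23 tested neutrophil probes was 127524 on ON3, 52210 and 47766 on the other hSRY-ON arrays, and 58436 to 68527 in hSRY-OFF livers. Those of 12 lymphocyte and 8 dendritic cell probes were 1452 and 4661 on ON3 against 650 to 675 and 1632 to 2318 on the other 2 hSRY-ON arrays. The sum of the monocyte and recruited macrophage probes was 18504 on ON3 against 19126 on ON1 and 21350 on ON2. The part of these cells in the member differences was not tested.

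Other genes of the pathways in which the members act were read from lists that share some genes. Called probes of *Nr1h3*, *Spic*, *Hmox1*, *Slc11a1* and *Lrp1* are each counted in more than 1 list, so that the counts are not independent. The lists of monocytes and of neutrophils, given further on, also share a called probe. Of 25 tested probes for Kupffer cell identity, 9 were called lower, 4 higher and 12 not at all, with a median difference of -0.07. *Folr2*, a folate receptor gene of resident macrophages, had the smallest p. Its log2 intensities were 8.39, 8.65 and 8.12 in hSRY-OFF and 5.20, 5.26 and 6.15 in hSRY-ON livers, so that the groups lay far apart. The difference was -2.85 ± 0.27 (SE, adjusted p 0.000525), and -2.55 once the 2 hSRY-ON arrays without detection were set to their detection floor. *Siglec1*, encoding the sialic acid receptor CD169, differed by -1.54 (adjusted p 0.00406, and -1.28 at that floor), and *Clec7a* (listed as *Clecsf12*), the receptor for fungal glucans, by -1.02 (adjusted p 0.00328).

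Both probes of *Nr1h3* were lower, by -0.94 ± 0.15 (SE, adjusted p 0.00418) and -1.08 ± 0.24 (SE, adjusted p 0.013, or -0.87 at the floor). Hepatocytes transcribe *Nr1h3* too, and among 16 tested hepatocyte probes 5 were called lower (2 without OFF2, 3 without OFF3) and 0 higher, *Alb* by -1.11 (adjusted p 0.00852) and *Ttr* by -0.46 (adjusted p 0.0174, lost when OFF1, OFF2 or OFF3 was omitted, 0.0544 to 0.058). Within the same list *Clec1b*, encoding the podoplanin receptor CLEC-2, rose by 0.67 ± 0.11 (SE, adjusted p 0.00421) and *Hmox1*, the heme-degrading enzyme gene, by 1.03 ± 0.17 (SE, adjusted p 0.00452). The macrophage identity list thus held called probes in both directions.

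Of the factors and ligands of the lineage, 17 probes other than members were tested, 3 called higher and 3 lower. The lower ones include both probes of *Nr1h3* and the higher ones a probe of *Spic*, all counted for Kupffer cell identity too. *Csf1*, *Il34* (listed as *2010004A03Rik*) and *Ccr2*, the monocyte chemokine receptor gene of another list, were detected on 0 arrays, and *Irf8* on 1. *Sfpi1* (now *Spi1*, encoding PU.1) differed by -0.49 ± 0.18 (SE, adjusted p 0.0772), and passed without ON3 (adjusted p 0.0108). One probe of *Spic* was called higher (0.63, adjusted p 0.0217) and the other was not (0.28, adjusted p 0.30). The first call was lost without OFF1 (0.0807), OFF2 (0.0789) or ON1 (0.0676), and the second probe passed without ON2 (0.0347). *Id1*, a target of BMP signals, rose by 0.80 (adjusted p 0.0162), and *Batf3* (listed as *9130211I03Rik*) differed by -1.14 (adjusted p 0.00504, or -1.08 at the floor). *Csf2rb*, encoding the shared beta chain of cytokine receptors, was at least 1.46-fold higher (fitted adjusted p 0.00875). It was detected on 0 hSRY-OFF arrays and passed the filter through hSRY-ON alone, so that its call lends no support to a difference.

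Phagocyte genes were mostly not called. Among 33 tested probes of C1q, lysosomal, Fc receptor and oxidase genes, 4 were lower and 0 higher, with a median of -0.17, and the lower ones numbered 2 without OFF1, OFF2, OFF3 or ON1 and 10 without ON3. *C1qa*, *C1qb* and *C1qc*, which encode the chains of C1q and are made largely by macrophages, differed by -0.19 (95% confidence interval from -0.53 to 0.16), -0.11 (-0.42 to 0.20) and -0.20 (-0.50 to 0.11), none of them called (adjusted p 0.362, 0.545 and 0.289). *Aif1*, encoding the actin-binding protein IBA1, was lower with both tested probes, by -1.61 ± 0.31 (SE, adjusted p 0.00828) and -1.45 ± 0.38 (SE, adjusted p 0.0248). The second of these calls did not pass when OFF1, OFF2, OFF3 or ON1 was left out (0.0618 to 0.0759). *Ctsc*, also counted among the 4 lower calls, was at least 1.30-fold lower (fitted adjusted p 0.00299). It passed the filter through the hSRY-OFF arrays alone, so that its call lends no support to a difference. Its other probes were not detected on any array. *Slc11a1*, an iron and manganese transporter of phagosomes, was called lower with 1 of its 4 tested probes (-0.49, adjusted p 0.0375). That call was kept without ON3 and lost without any other array (0.0769 to 0.123).

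The genes around *Cd14* in endotoxin sensing gave 5 higher and 1 lower call among 18 other tested probes, with 3 higher calls when OFF1, OFF2 or OFF3 was omitted. *Nfkbia*, an inhibitor of NF-kB that NF-kB itself induces, read 8.63, 8.61 and 8.70 in hSRY-OFF and 9.96, 10.45 and 9.29 in hSRY-ON livers. Here too ON2 was highest and ON3 lowest of the hSRY-ON arrays, and the difference of 1.25 ± 0.27 (SE) was called (adjusted p 0.0119). *Rela*, *Ticam1*, *Traf6* and *Myd88* were higher by 0.66, 0.88, 0.79 and 0.38 (adjusted p 0.00563, 0.00543, 0.02 and 0.0414). *Tlr2* differed by -0.88 (adjusted p 0.0166). The receptor partners of *Cd14* were not called. *Tlr4* (ILMN_2752966) was not well above background on any hSRY-ON array, and no difference was called for it (adjusted p 0.154). *Ly96*, which encodes MD-2, differed by -0.01 (adjusted p 0.989) and *Lbp* by -0.33 (adjusted p 0.371). Second probes of *Ticam1* and *Traf6* were not called (0.18 and 0.27, adjusted p 0.413 and 0.158). The call of *Traf6* was lost when OFF1, OFF2 or OFF3 was omitted (0.0539 to 0.0765), that of *Tlr2* without OFF2, OFF3 or ON1 (0.0517 to 0.0639), and that of *Myd88* without each array in turn (0.059 to 0.128).

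In heme and iron recycling, where *Cd163* has its role, 6 of 23 tested probes were called higher and 2 lower, the higher ones falling to 2 without OFF1 and 3 without OFF2 or ON1, and the lower ones running from 0 without OFF1, OFF2, OFF3 or ON2 and 1 without ON1 to 4 without ON3. Beside *Hmox1*, *Fth1* (ferritin heavy chain, 0.61, adjusted p 0.00743, and 0.24 with a second probe that was not called), *Bach1* (a repressor of *Hmox1*, 0.74, adjusted p 0.0244) and *Slc48a1* (a heme transporter, listed as *4930570C03Rik*, 0.50, adjusted p 0.0280) were higher. The *Bach1* and *Slc48a1* calls were lost without OFF1, OFF2 or ON1, and that of *Bach1* also without ON2 (0.0564 to 0.104 in all). *Slc40a1*, the iron exporter ferroportin, differed by -0.32 ± 0.16 (SE, adjusted p 0.154), and the 3 probes of *Hp*, the haptoglobin gene, by -0.05, -0.02 and 0.00 (adjusted p 0.846 to 0.991). Erythroid markers, 8 of 20 tested probes higher and 0 lower (1 higher without OFF1, 5 without OFF2, 3 without ON1 and 13 without OFF3), had summed intensities of 83162 to 117975 in hSRY-OFF and 111233 to 134171 in hSRY-ON livers, *Hbb-b1* differed by 0.47 (adjusted p 0.27), and their part in these values was not tested.

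Clearance of dying cells, the function of *Timd4*, gave 2 higher and 4 lower calls among 16 tested probes. The higher ones were both probes of *Mfge8*, a bridge between phosphatidylserine and integrins (0.65 and 0.79, adjusted p 0.0066 and 0.00844). *Xkr8*, a lipid scramblase gene, was lower by -0.91 (adjusted p 0.0102). *Gas6*, the ligand of the TAM receptors, *Elmo1* and *Lrp1* were lower by -0.54, -0.54 and -0.67 (adjusted p 0.0484, 0.0473 and 0.0441). These 3 calls were lost in 8, 9 and 14 of their alternative settings, including the fits without OFF1 or OFF2. *Lrp1* was detected on 1 hSRY-ON array, and with the other 2 at their detection floor its difference was -0.32 (adjusted p 0.168). The count of lower calls in this list was 1 without OFF1, OFF2 or ON2. The receptors *Mertk* and *Axl* differed by -0.22 and -0.03 (adjusted p 0.336 and 0.870).

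Genes of monocytes and of macrophages that enter injured tissue had 6 of 15 tested probes called higher and 1 lower and a median of 0.73. The higher calls numbered 3 without OFF2, and the lower ones 3 without ON3. *Gpnmb*, a lysosomal glycoprotein gene of lipid-laden macrophages, had a mean of 5.96 in hSRY-OFF and values of 7.26, 7.54 and 7.13 in hSRY-ON livers, with a difference of 1.36 ± 0.14 (SE, adjusted p 0.000722). *F13a1*, the coagulation factor XIII subunit gene of monocytes and macrophages, rose by 2.27 ± 0.24 (SE, adjusted p 0.000756), and *Cd9*, a tetraspanin gene that many cell types use, by 2.59 ± 0.22 (SE, adjusted p 0.000351). *Lgals3* and *S100a6* were higher by 0.97 and 0.74 (adjusted p 0.0228 and 0.0166), both lost without OFF1 or OFF2, *Lgals3* also without OFF3 and *S100a6* without ON1 (0.0513 to 0.0715). *Ccl9*, a chemokine gene of myeloid cells, differed by -1.51 ± 0.21 (SE, adjusted p 0.00212), and *Cx3cr1* by -0.57 (adjusted p 0.352).

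**Figure D3:**
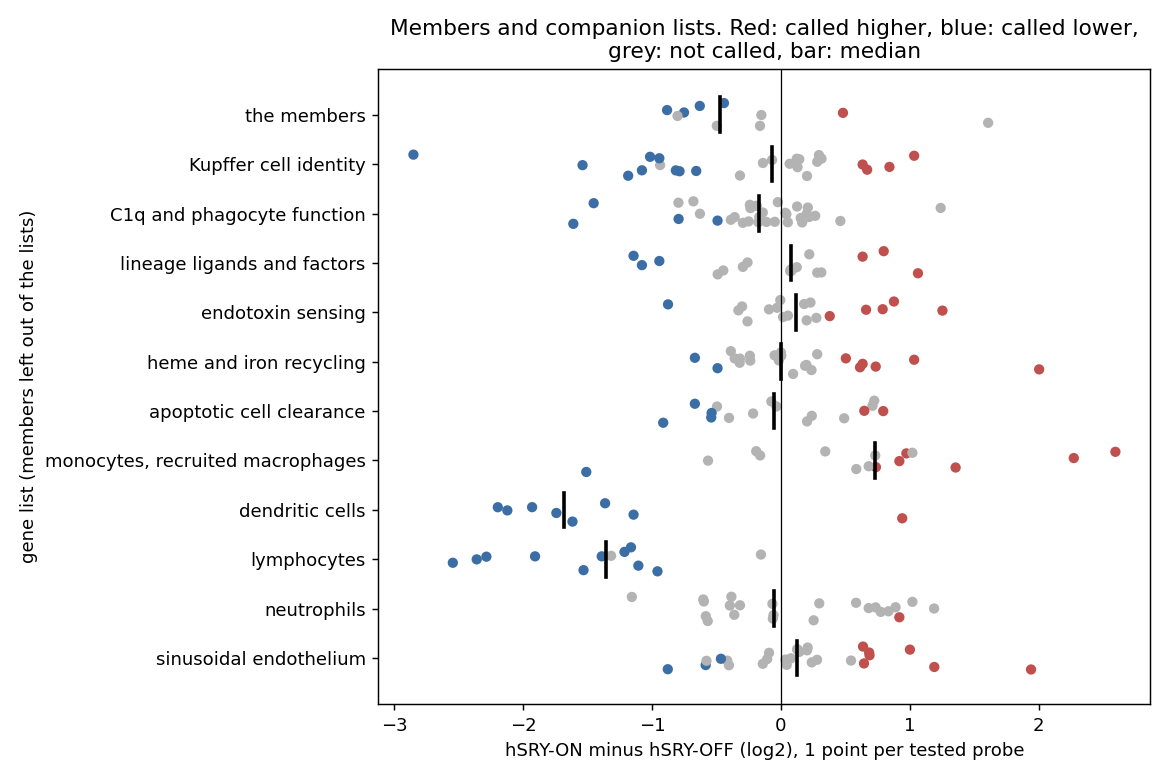
Difference between hSRY-ON and hSRY-OFF livers (x axis, log2) for the member probes and for the tested probes of companion lists without the members (y axis), with 1 point per probe coloured by call and a black bar at the median. Among the lists drawn, medians run from -1.68 for dendritic cells and -1.35 for lymphocytes to 0.73 for monocytes and recruited macrophages, and the members lie at -0.47. The lists of erythroid cells, hepatocytes, stellate cells and complement genes are not drawn.

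Markers of other cells that a liver sample can hold were counted for comparison. Pan-leukocyte *Ptprc* was detected on 0 arrays. Among dendritic cell and antigen presentation genes, which macrophages share in part, 7 of 8 tested probes were lower and 1, of *Zbtb46*, higher, with *Cd74* lower by -2.20 (adjusted p 0.0081), and summed intensities were 6802 to 13930 in hSRY-OFF and 1632 to 4661 in hSRY-ON livers. Lymphocyte probes were lower at 10 of 12, with sums of 2309 to 2498 and 650 to 1452, and *Cd3e* differed by -1.91 (adjusted p 0.00321, or -1.30 at the floor). Sinusoidal endothelial probes, the neighbours of Kupffer cells, gave 7 higher and 3 lower calls of 27, with *Lyve1* higher by 1.94 (adjusted p 0.000742) and *Stab2* not called (0.24, adjusted p 0.207). Of these lower calls, that of *Gata4* passed the filter through the hSRY-OFF arrays alone, so that it lends no support to a difference. Stellate cell probes gave 5 higher and 4 lower calls of 17, the higher ones from 2 genes and the lower ones from 4. Sinusoidal lower calls were 0 without OFF1 or OFF2 and 1 without ON1. Neutrophil probes gave 1 higher and 0 lower calls of 23 (11 lower without ON3), with *S100a8* and *S100a9* differing by -0.07 and -0.06 (adjusted p 0.862 and 0.945), and without ON3 both were called lower (adjusted p 0.0439 and 0.00675). The higher neutrophil call is a probe that is also counted among the higher calls of monocytes and recruited macrophages. Whether these cell types had a part in the member values was not tested.

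**Figure D4:**
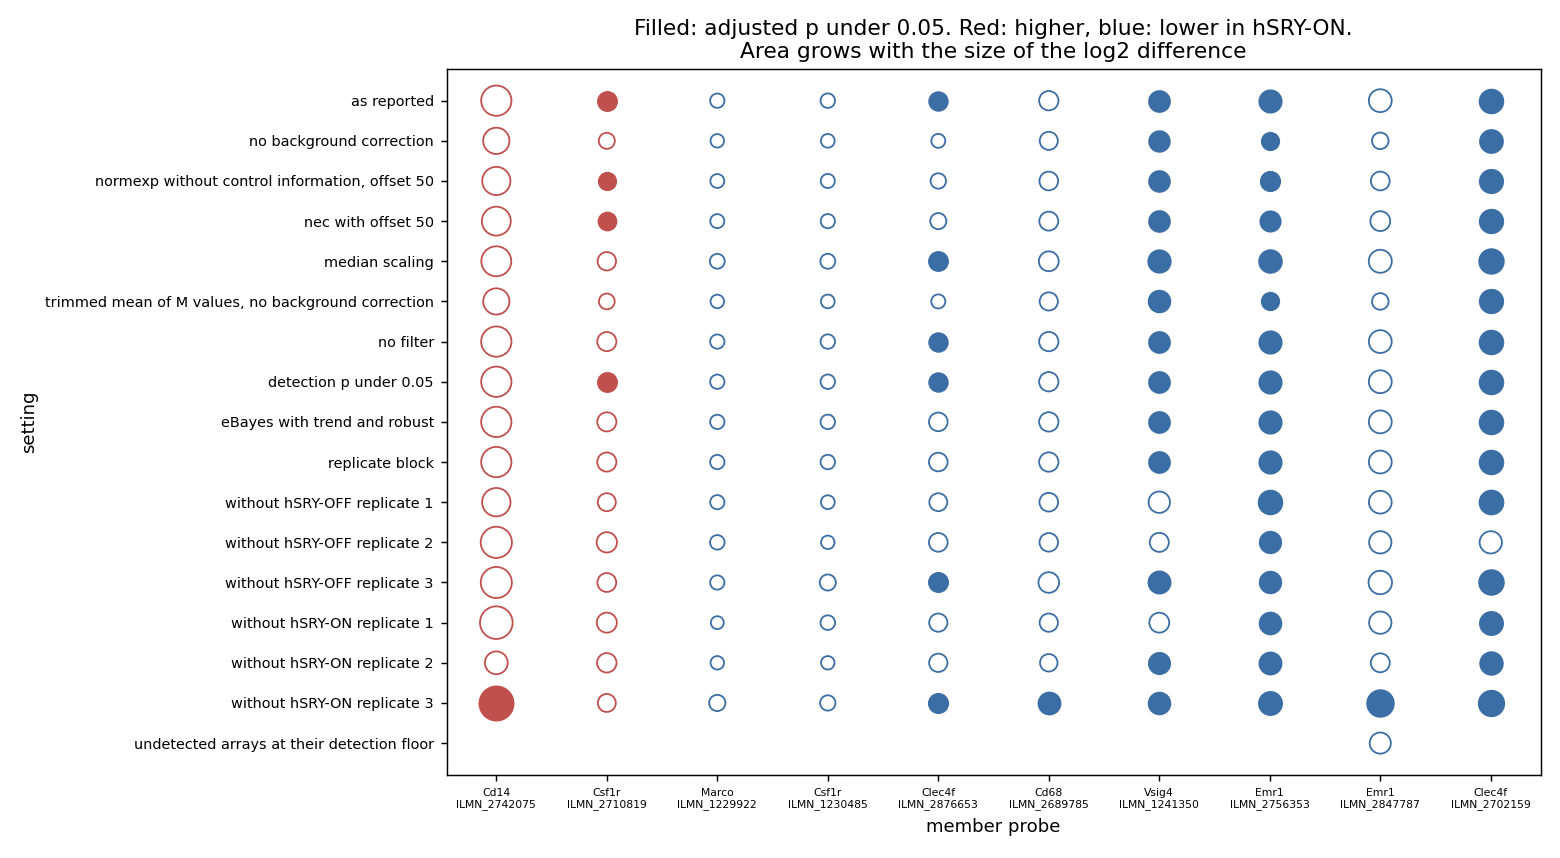
Each tested member probe (x axis) under each processing setting (y axis), with circle area growing with the size of the log2 difference, blue for lower and red for higher in hSRY-ON livers, and filled circles for an adjusted p under 0.05. *Emr1* ILMN_2756353 is filled under each setting run for it and *Clec4f* ILMN_2702159 in all but the one without OFF2.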

How the data were processed

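Liver RNA from male pups (3 hSRY-ON, 3 hSRY-OFF) was hybridised to Illumina MouseRef-8 v2.0 BeadChips, and groups and replicate numbers came from the sample labels. The deposited intensities are mean bead signals on a linear scale without background subtraction or normalization by the authors, and the deposited detection p-values rank each probe among about 798 negative control beads of its array. Scanner software and genome build are not given in the sources used here, and 0 columns were left without a sample. The study names TCC, a count package, which was not applied to intensities, and the submitters' processing notes list limma. The number of arrays limits the precision. The litter of each pup is not given, and p-values measure the spread between these 6 arrays.

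Background was inferred from the detection p-values and removed with nec (normexp, offset 16) of limma 3.58.1 (R 4.3.3), then values were quantile-normalized and put on the log2 scale. The offset shrinks differences of dim probes. Testing was limited to the 10734 probes detected (p under 0.01) on 3 or more of the 6 arrays, with lmFit and eBayes, no covariates, two-sided p-values and Benjamini-Hochberg adjustment over these probes, at a threshold of 0.05. For a probe detected nowhere in a group, the fold is a bound: that group's arrays were each set to the lowest signal detected on them, or to the probe's own where higher, before means of log2 values were compared. Probes of a gene were tested separately. Of 18138 symbols, 14307 were current in RefSeq (GRCm38.p6), 2927 matched 1 older name and 904 were not matched. The procedure was tested on simulated data.

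The members and lists were chosen with earlier results of these data known. Named were each member probe, up to 6 called probes per list with the smallest p, and a set of genes whatever their values, and the text gives fewer for the lists of other cell types. Of the genes and motifs examined, 1 of each is not reported here. The alternatives were other background corrections, offsets, scalings, filters and variance models, a replicate block and each array left out.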

Additional observations from a re-analysis of the deposited data

How the results depend on the processing

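No tested member probe changed direction under the settings run for it, 15 for each probe and 1 more, the detection floor, for *Emr1* ILMN_2847787. The count of members called higher, 1, was 0 without background correction, with median scaling, with trimmed-mean (TMM) scaling of intensities that were not background-corrected, with trend and robust variances and with the replicate block, and ranged from 0 to 1 with 1 array left out. The count called lower, 4, ranged from 1 (without OFF2) to 6 (without ON3), being 2 without OFF1 or ON1, and was 3 or 4 in the other settings, 3 with the replicate block. Over all tested probes, 893 to 1944 were called higher and 1141 to 2116 lower with 1 array left out, both lowest without OFF1 and highest without ON3. Deviations of same-numbered arrays correlated at 0.02, 0.10 and 0.05, so the numbers were not taken to pair the samples, and the replicate block gave 1565 higher and 1645 lower probes.

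Signs turned at companion probes near 0. *Hp* ILMN_2944824 was 0.016 with median scaling, 0.052 with TMM scaling and no background correction and -0.052 to 0.031 with 1 array left out, *Hp* ILMN_2668510 was -0.020 with median scaling and -0.087 to 0.144 with 1 left out, and *Hp* ILMN_2668509 was -0.140 to 0.124. With 1 array left out, *Axl* ILMN_2651715 ran from -0.14 to 0.025, *Ly96* ILMN_2743003 from -0.172 to 0.217, *S100a8* ILMN_2710905 from -0.369 to 0.122 and *S100a9* ILMN_2803674 from -0.768 to 0.332. Probes not well above background on enough arrays (5 of the 15 member probes) have no level that can be compared.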

Other observations

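The tested probes of other genes whose values ran most like those of *Emr1* ILMN_2756353, each set relative to its own hSRY-OFF mean over the 6 arrays, were *Col14a1*, a collagen gene, at a root mean square distance of 0.08 on the log2 scale, *Spryd4* at 0.10 and *Prkaca*, a catalytic subunit of protein kinase A, at 0.11. Their differences between hSRY-ON and hSRY-OFF livers were -0.85, -0.72 and -0.73. Likeness was measured over 6 arrays of 2 groups, and is given as a description.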
